A study of Mus musculus with 8 samples.

Results

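Dual-specificity phosphatases of the Dusp family and the Sprouty proteins are the main brakes on the MAP kinase cascades that growth factors switch on, and 10 of their genes were examined here in vascular smooth muscle cells with and without the calcium pump PMCA4. Every probe annotated to Dusp1, Dusp2, Dusp4, Dusp5, Dusp6, Dusp10, Dusp14, Spry1, Spry2 and Spry4 was taken, without regard to its values. That gave 16 probes for 9 genes, out of 16593 genes with a symbol on the array. The genes themselves were chosen with earlier results of these data known. Dusp5 had no probe under its symbol or gene identifier in the annotation used, so it was not analysed here.

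The cells were primary vascular smooth muscle cells of the carotid artery of male C57bl6 mice, either wild type for PMCA4 or PMCA4 knockout. PMCA4 is a calcium exporter of the plasma membrane and the product of Atp2b4. Cells of both genotypes were synchronised by serum. PDGF-BB, a mitogen of smooth muscle cells, was then given together with serum, and the cells were stained with the DNA dye Hoechst and sorted for early G1, and RNA of each sample went onto 1 Illumina bead array, 4 arrays per genotype. The labels give neither the age of the mice, nor the part of Atp2b4 that was deleted, nor whether the 4 arrays per genotype stand for separate animals or cultures. The p-values therefore cover only the spread among these samples, which may be technical.

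As background, a growth factor receptor activates Ras, which activates the kinases Raf, MEK and ERK in turn, while stress and cytokines act more through the kinases p38 and JNK. MAP kinase phosphatases remove both the tyrosine and the threonine phosphate from the activation loop of these kinases. Sproutys act further upstream, on the step from the receptor to Ras and Raf. Many of these brakes are transcribed in response to the kinases they restrain, which makes them negative feedback regulators, and Dusp1 in particular is an immediate early gene of serum-stimulated fibroblasts and smooth muscle cells.

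All tested members but Dusp14 were higher in knockout, and no member was lower. Dusp1 and Dusp4 were about equally higher, at 3.52-fold and at 3.42-fold to 3.45-fold, Dusp10 at 1.95-fold to 2.06-fold, Dusp6 at 1.54-fold to 1.80-fold and Spry4 at 1.44-fold (4 arrays per genotype). Dusp2, Spry1 and Spry2 were not detected on any array, where detected means a detection p under 0.05. Of the 16 probes, 9 were detected on at least 4 of the 8 arrays and could be tested, and 8 of these passed an adjusted p of 0.05 in limma, a linear model of log2 intensity fitted to all probes, with adjustment by Benjamini-Hochberg over all probes tested. All 8 were higher. Changes of this kind were common in these data, and 56.3% of the 12040 tested probes passed, 26.3% higher and 30.0% lower. The median log2 change was 0.96 over the 9 tested member probes and -0.02 over all tested probes. These 9 probes stand for 6 genes, and with 1 probe a gene the members' median was 0.79. All but 1 of the tested member probes were detected on all 8 arrays, so that their place among the tested probes did not depend on the genotype in which they were higher.

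**Figure D1:**
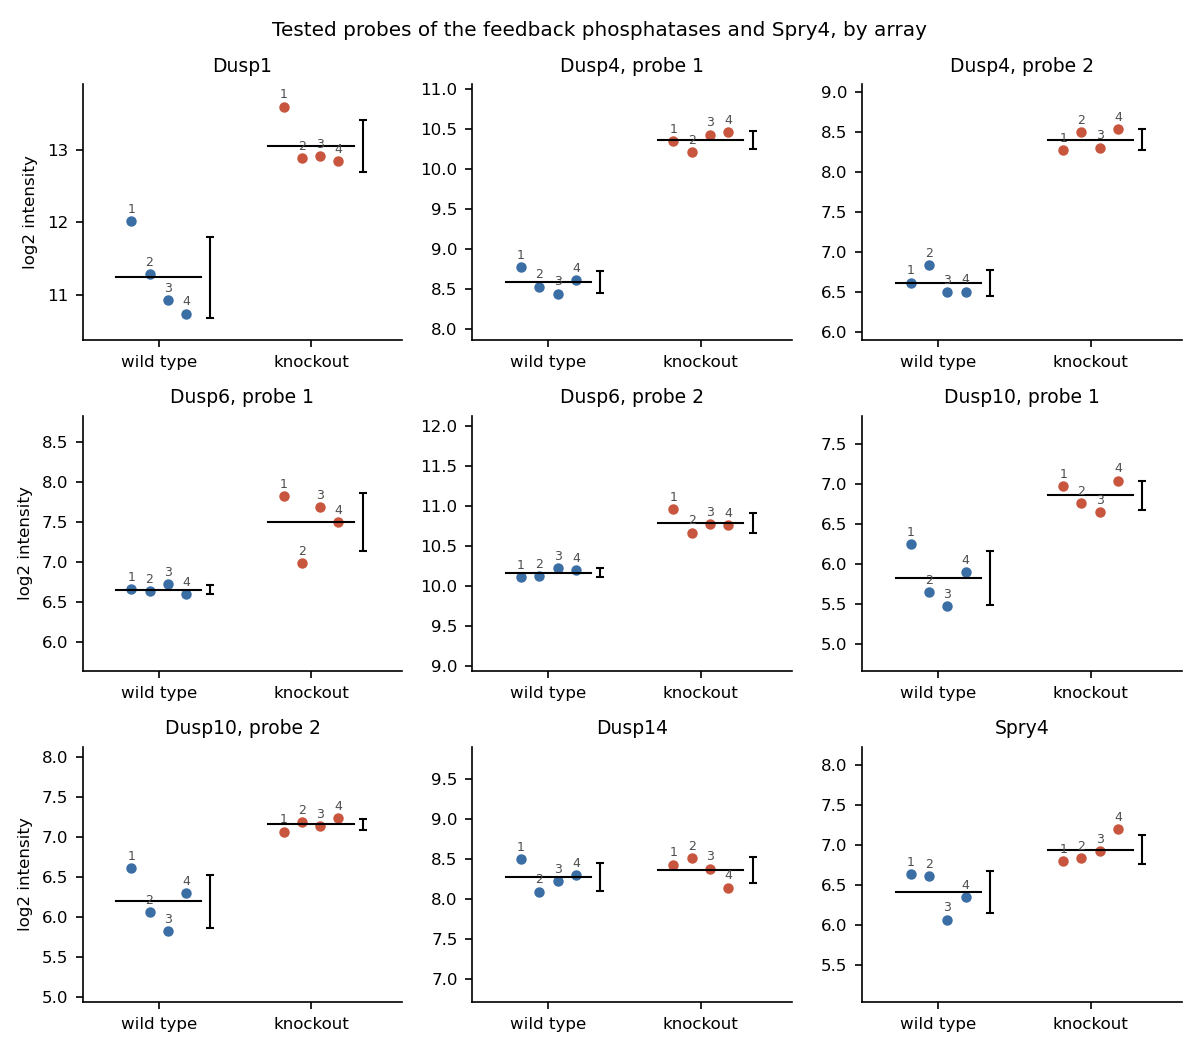
Log2 intensity (vertical axes, each with its own range) of the 9 tested member probes on the 4 wild-type (blue) and 4 knockout (red) arrays. Numbers are the replicate numbers of the labels, horizontal lines are means and bars are 1 SD. The genotypes do not overlap in any panel except that of Dusp14.

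A few facts of the arrays as a whole bear on what follows. Between 11697 and 11987 of 25697 probes were detected per array. Atp2b4 itself did not pass at its only detected probe, with a log2 difference of 0.06 (limma adjusted p = 0.719), so the direction of each change rests on the labels of the arrays. Of 10 smooth muscle markers with a probe, 6 of the 7 tested were higher in knockout and 1 was lower. Acta2 and Tagln were detected on every array, whereas Myh11 and Mylk were detected on no wild-type array and Cnn1 on no array. Markers of adventitial fibroblasts moved with the genotype too, with 11 of 13 tested higher and 0 lower, and their summed deposited intensity was 7083 to 7161 in wild type and 66102 to 74150 in knockout. All 5 tested mitosis genes were lower, with summed intensities of 3033 to 3522 in wild type and 914 to 1129 in knockout. Of these markers Myh11, Mylk, Lum and Kif11 were detected in only 1 genotype and so passed the filter on dim probes through it. The part of these shifts in the results below was not tested. In such bulk samples fewer cells of a type and less RNA per cell cannot be told apart.

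Of the nuclear phosphatases, Dusp1 and Dusp4 had the largest rises among the members. Dusp1 (also MKP-1), which inactivates p38, JNK and ERK, lies on chromosome 17 and has a single probe (ILMN_2622983). Its log2 intensity was 12.01, 11.28, 10.92 and 10.74 on the wild-type arrays against 13.59, 12.88, 12.91 and 12.84 on the knockout arrays. In the deposited intensities this was 1647 to 4189 against 7303 to 11670. Every knockout array lay above every wild-type array, and replicate 1 was the highest of its genotype on both sides. The means were 11.24 ± 0.56 and 13.06 ± 0.36 (SD, n = 4 each). The log2 change was 1.82 with a standard error of 0.26 and a 95% confidence interval from 1.23 to 2.41 (limma adjusted p = 0.000224). A rise of at least this size was seen at 2.0% of all tested probes. Dusp1 was also one of the least repeatable transcripts within a genotype. Its within-group SD of 0.47 exceeded that of 99.8% of tested probes, whose median was 0.12. Without both replicate 1 arrays, an alternative chosen after the data were seen, the log2 change of Dusp1 was 1.90 (limma adjusted p = 9.82e-06).

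The promoter of Dusp1 is known for sites of the cyclic AMP response element (CRE) type, so promoter windows of the members were searched for short motifs. The windows run from 250 bases before to 50 after the transcription start in RefSeq (GRCm38.p6), and 8 members had one. Both strands were searched for the CRE core TGACG, the full CRE TGACGTCA, which holds the core on both strands, the AP-1 site TGANTCA, the E-box CACGTG, the ETS site CCGGAA and the CArG box by name. The 3 windows below are those of members that rose, and capitals mark every match. In Dusp1 (chr17:26508423-26508722, minus strand) these are a CRE core that begins at base -191, a full CRE at -143 and an E-box at -126, counted from the start site. The windows of Dusp6 (chr10:99262981-99263280, plus strand) and Dusp10 (chr1:184034131-184034430, plus strand) hold no match to any of the motifs.
Dusp1: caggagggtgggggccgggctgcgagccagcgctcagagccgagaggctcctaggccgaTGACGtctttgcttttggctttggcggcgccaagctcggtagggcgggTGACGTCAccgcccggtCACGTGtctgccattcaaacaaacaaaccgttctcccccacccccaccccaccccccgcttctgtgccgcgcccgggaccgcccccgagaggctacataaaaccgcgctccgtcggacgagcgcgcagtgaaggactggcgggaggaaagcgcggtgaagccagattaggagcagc
Dusp6: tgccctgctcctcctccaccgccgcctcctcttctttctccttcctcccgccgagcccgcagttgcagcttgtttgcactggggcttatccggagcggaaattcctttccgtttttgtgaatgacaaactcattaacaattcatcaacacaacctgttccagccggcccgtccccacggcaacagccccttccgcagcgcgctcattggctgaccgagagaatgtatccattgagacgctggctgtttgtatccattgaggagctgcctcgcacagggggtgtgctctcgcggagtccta
Dusp10: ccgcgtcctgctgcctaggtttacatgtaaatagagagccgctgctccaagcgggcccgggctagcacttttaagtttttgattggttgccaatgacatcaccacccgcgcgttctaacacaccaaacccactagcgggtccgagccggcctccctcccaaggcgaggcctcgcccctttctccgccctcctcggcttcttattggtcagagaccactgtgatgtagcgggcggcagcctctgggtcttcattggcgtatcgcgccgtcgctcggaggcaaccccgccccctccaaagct

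Of 32851 windows of this length in the RefSeq table, 20.8% held the CRE core, 1.79% the full CRE, 7.15% the E-box, 7.81% the AP-1 site, 14.9% the ETS site and 1.63% the CArG box. Among the other members, the windows of Dusp2 and Dusp5 also held a CRE core, that of Dusp2 an E-box, that of Dusp5 a pair of CArG boxes and those of Dusp14 and Spry2 an ETS site. These matches are a description of letters and no evidence of binding. Dusp4 and Spry4 had no window and were not searched, and of the 3 windows shown only that of Dusp1 held a match.

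Dusp4 (MKP-2), a nuclear phosphatase of ERK, JNK and p38, rose by about as much as Dusp1 with less spread between arrays. Dusp4 lies on chromosome 8. Its brighter probe (ILMN_2689731) gave 8.77, 8.53, 8.44 and 8.61 in wild type against 10.35, 10.21, 10.43 and 10.46 in knockout. Its log2 change was 1.78, with an interval from 1.58 to 1.97 (limma adjusted p = 8.07e-08). The next probe (ILMN_2870965) gave 6.61, 6.83, 6.49 and 6.50 against 8.27, 8.49, 8.30 and 8.53, a log2 change of 1.79 (limma adjusted p = 1.45e-07). Both probes placed the genotypes far apart relative to their spread, with SDs from 0.11 to 0.16. The remaining Dusp4 probe was too dim to be tested, and it was detected on 0 wild-type and 2 knockout arrays. It read from 4.97 to 5.22 in wild type against from 5.58 to 6.23 in knockout, so its arrays did not overlap either.

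Dusp2 (PAC-1), a nuclear phosphatase best known from activated lymphocytes, was not detected at either of its probes on any array. Its brighter probe read 5.38, 5.78, 5.56 and 5.44 in wild type against 5.31, 5.56, 5.20 and 5.37 in knockout. The other read from 4.89 to 4.96 in wild type against from 4.89 to 5.28 in knockout. The genotypes overlapped at both probes, and no difference of Dusp2 was detectable at this signal. The lowest value of any detected probe lay between 5.74 and 5.83 depending on the array.

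**Figure D2:**
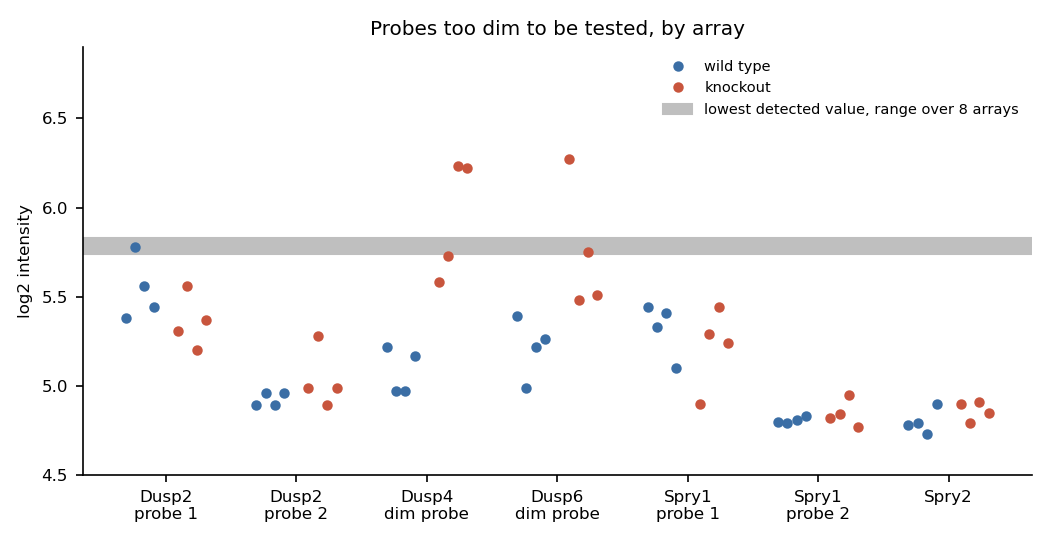
Log2 intensity of the 7 member probes that were too dim to be tested, with 1 point per array (blue wild type, red knockout) and a grey band for the lowest value of a detected probe over the 8 arrays. The dim Dusp4 and Dusp6 probes are higher on every knockout array than on every wild-type array, and the Dusp2, Spry1 and Spry2 probes overlap.

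Dusp6 (MKP-3), the cytoplasmic phosphatase that acts almost only on ERK, rose by less. Dusp6 lies on chromosome 10. Its brightest probe (ILMN_2925711) gave 10.11, 10.13, 10.23 and 10.20 in wild type against 10.96, 10.67, 10.78 and 10.76 in knockout. All knockout arrays were above all wild-type arrays, at means of 10.17 ± 0.06 and 10.79 ± 0.12 (SD, n = 4 each). The log2 change was 0.63, with an interval from 0.46 to 0.79 (limma adjusted p = 4.98e-05). The next probe (ILMN_1248537) gave 6.66, 6.64, 6.73 and 6.60 against 7.83, 6.99, 7.69 and 7.50, a log2 change of 0.85 (limma adjusted p = 0.00104). At this probe the spread was wider in knockout, with an SD of 0.37 against 0.06, and knockout replicate 2 was the lowest. The remaining, dim probe, detected on 1 knockout array, read from 4.99 to 5.39 in wild type against from 5.48 to 6.27 in knockout, again without overlap.

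Dusp10 (MKP-5), which prefers p38 and JNK over ERK, was higher at both of its probes, on chromosome 1. The brighter (ILMN_2818964) gave 6.61, 6.06, 5.83 and 6.30 in wild type against 7.07, 7.19, 7.14 and 7.24 in knockout. The genotypes did not overlap, and the wild-type arrays spread more, with an SD of 0.33 against 0.07. The log2 change was 0.96, with an interval from 0.64 to 1.28 (limma adjusted p = 0.00025). The dimmer (ILMN_2678724) gave 6.25, 5.65, 5.47 and 5.90 against 6.97, 6.76, 6.65 and 7.04, a log2 change of 1.04 (limma adjusted p = 0.00031). It was detected on 2 wild-type and 4 knockout arrays, so that it passed the filter on dim probes mainly through the genotype in which it was higher. Wild-type replicates rank in the same order at both Dusp10 probes. With normexp background correction and an offset of 50, the Dusp10 changes were 0.58 and 0.59 and still passed.

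Dusp14 (MKP-6), an atypical member that lacks the kinase-binding domain of the classical phosphatases, was the only tested member that did not pass. Its probe (ILMN_2764309, chromosome 11) gave 8.50, 8.09, 8.22 and 8.30 in wild type against 8.43, 8.51, 8.38 and 8.14 in knockout. The arrays of the genotypes were interleaved, with a log2 difference of 0.09 and an interval from -0.15 to 0.32 (limma adjusted p = 0.504). That upper bound is below the lower bounds of the intervals for Dusp1, Dusp4, Dusp6 and Dusp10.

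Of the Sproutys, Spry4 was the only one detected. Spry4 curbs receptor signalling to Ras and Raf, and its probe (ILMN_2825817) gave 6.64, 6.61, 6.07 and 6.35 in wild type against 6.80, 6.84, 6.93 and 7.20 in knockout. The highest wild-type and the lowest knockout array were close, but the groups did not overlap. Spry4 was higher by 0.52 on the log2 scale, with an interval from 0.22 to 0.83 (limma adjusted p = 0.00824), and by 0.31, still past the threshold, with normexp and an offset of 50. Spry1 was at background at both probes, from 5.10 to 5.44 and from 4.79 to 4.83 in wild type against 4.90 to 5.44 and from 4.77 to 4.95 in knockout. Spry2 likewise read from 4.73 to 4.90 in wild type against from 4.79 to 4.91 in knockout. The arrays of the genotypes overlapped for both genes, so these arrays show nothing of a difference in Spry1 or Spry2.

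Ordered by change, the members ran from Dusp1 and Dusp4 through Dusp10 and Dusp6 to Spry4 and Dusp14. The intervals of Dusp1 and Dusp4 overlapped, as did those of Dusp10, Dusp6 and Spry4. Such overlap is no test of a difference and does not settle the order within these sets. The interval of each Dusp4 probe lay above those of both Dusp10 probes, both Dusp6 probes and Spry4. That of Dusp1, from 1.23 to 2.41, overlapped those of the Dusp10 probes, which reached 1.28 and 1.39. The Spry4 interval, from 0.22, overlapped that of Dusp14, which reached 0.32. These overlaps do not settle the order across the sets either. Differences between members were not tested, and an offset compresses the change of a dim probe more than that of a bright one. For Dusp4, Dusp6 and Dusp10 the dimmer tested probe nevertheless did not have the smaller change. The untested dim probes of Dusp4 and Dusp6 had smaller changes than the tested ones, at 0.86 and 0.54 without the filter. Of the 9 tested member probes, 8 had genotypes that did not overlap, all higher in knockout, beside 51.5% of all tested probes without overlap, 23.5% higher.

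**Figure D3:**
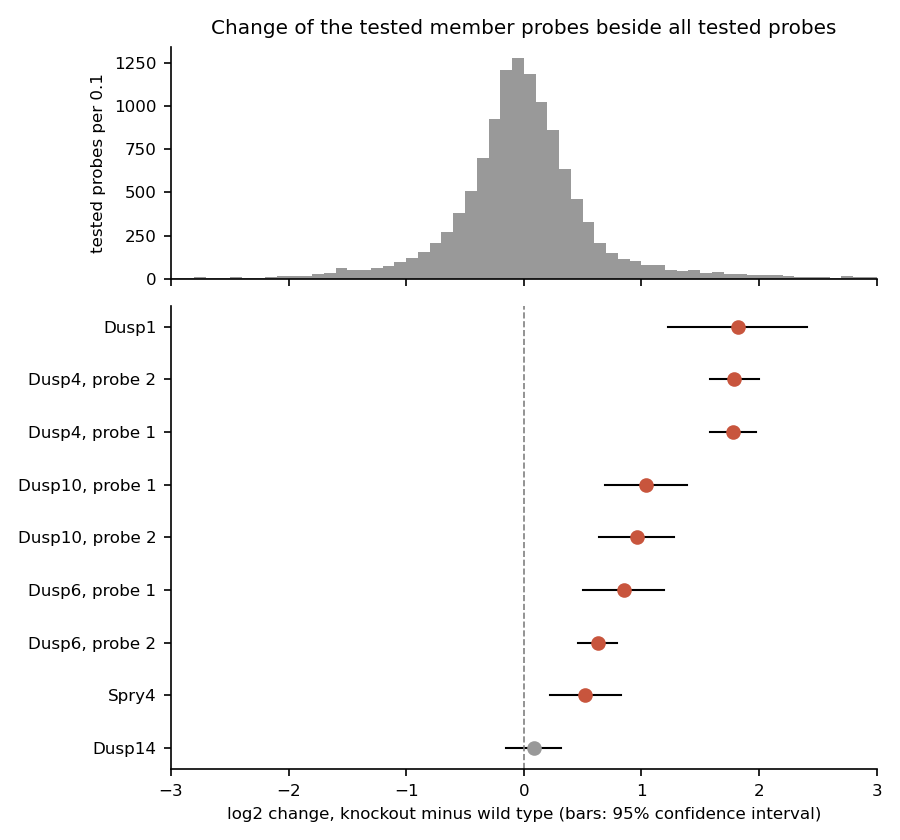
Top, number of tested probes per 0.1 of log2 change over all tested probes, with the few largest changes outside the axis. Below, log2 change of each tested member probe with its 95% confidence interval, red where it passed an adjusted p of 0.05 and grey where it did not. Dusp1 and Dusp4 lie near 1.8 and the Dusp14 interval includes 0.

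Beyond the members, the other classical MAP kinase phosphatases did not pass. Of 4 genes 3 could be tested, and 0 were higher and 0 lower, whereas over all 8302 tested genes, with 1 probe a gene, 57.6% passed, 26.9% higher and 30.7% lower. Dusp7, an ERK phosphatase like Dusp6, read 10.26, 9.96, 9.94 and 10.15 in wild type against 10.38, 10.35, 10.18 and 10.29 in knockout. Its log2 difference of 0.22 had a limma adjusted p of 0.05, which was not under the threshold. Dusp8 and Dusp16, both phosphatases of JNK and p38, had log2 differences of -0.16 (limma adjusted p = 0.143) and -0.03 (limma adjusted p = 0.825), and Dusp9 was not detected. Of 6 tested atypical dual-specificity phosphatases, 5 were higher and 0 lower, with a median log2 change of 0.38. These were Dusp15 (0.76), Dusp23 (0.54), Dusp18 (0.45), Dusp19 (0.30) and Dusp11 (0.24), with Dusp18 detected on only 1 wild-type array and another Dusp11 probe lower by a log2 change of -0.29.

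Of the other feedback regulators of receptor kinases, 2 of 6 tested were higher and 0 lower (median log2 change 0.22). Lrig1, which promotes the turnover of ErbB receptors, rose by 0.60 on the log2 scale, with means of 11.55 ± 0.07 and 12.14 ± 0.08 (SD, n = 4 each; limma adjusted p = 3.36e-05). Il17rd (Sef), a membrane inhibitor of FGF signalling, rose by 0.54 (limma adjusted p = 0.00101). The Sprouty relatives Spry3, Spred1 and Spred2 and the EGF receptor inhibitor Errfi1 did not pass, with log2 differences from 0.13 to 0.24. Spry3 read from 6.24 to 6.70 in wild type against from 6.42 to 6.89 in knockout, with overlap.

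Growth factors and their receptors, the start of the cascade, had the largest median change of the 7 pathway lists. Of 13 tested, 10 were higher and 2 lower, with a median log2 change of 0.51. Igf1 rose 5.86-fold, Fgf10 4.36-fold, Egfr 4.34-fold and Fgf2 4.27-fold. These 4 were named for having the largest changes of the list, so that the lack of overlap between their genotypes adds nothing further. Of all tested probes, 23.5% were higher without overlap. The 2 that were lower were receptors, Igf1r for Igf1, at a log2 change of -0.71 (limma adjusted p = 0.000358), and Fgfr2 for Fgf10, at least 1.30-fold lower, since it was detected on no knockout array (limma adjusted p = 6.5e-05). Pdgfra is on this list and on that of the fibroblast markers. Along the core from Ras to ERK, 4 of 12 tested genes were higher and 1 lower (median 0.15). The Ras relatives Rras and Rras2 rose by 0.67 and 0.56 and the MEK gene Map2k1 by 0.56, while the adaptor Shc1 fell by 0.46 at its brightest probe. Of 16 tested kinases of the p38, JNK and ERK5 branches, 4 were higher and 7 lower (median -0.15), beside 26.9% and 30.7% of all tested genes. Map3k1, an activator of the JNK branch, fell by 1.03. Map2k6, a p38 kinase kinase, fell by 0.60 at its brighter tested probe, which was detected on 2 knockout arrays and had overlapping genotypes. Its other tested probe was at least 1.27-fold lower (limma adjusted p = 0.000252). That probe was detected on no knockout array and so passed the filter on dim probes through wild type. The p38 isoform genes Mapk12 and Mapk13 fell by 0.53 and 0.48 at their brighter probes, and their other tested probes had log2 changes of -0.60 and -0.23. Another p38 isoform gene, Mapk14, and another p38 kinase kinase gene, Map2k3, rose by 0.23 and 0.26.

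Transcripts induced by ERK moved in both directions, as did the tested genes at large. Of 18 tested, 3 were higher, 6 were lower and 9 did not pass, with a median log2 change of -0.14. Over all tested genes 26.9% were higher and 30.7% lower. Fos rose by 1.55 on the log2 scale (limma adjusted p = 0.00322) and Fosl1 by 0.40 (limma adjusted p = 0.00197). Egr2 rose by 0.93. Etv1 fell by 1.22, Ier3 by 1.08, Fosb by 1.00 and Etv4 by 0.82, with Fosb overlapping between genotypes and Etv1 detected on 3 knockout arrays. Egr1, Etv5, Myc and Ccnd1 did not pass, with log2 differences of -0.15, -0.07, -0.16 and 0.10. Dusp6, Spry4, Il17rd, Etv4 and Etv5 are known as a group of transcripts induced together by FGF and ERK in embryos. Here the first 3, feedback inhibitors, were higher. Etv4, a transcription factor, was lower at 7.31, 7.30, 7.47 and 7.68 against 8.19, 8.21, 8.38 and 8.27 in wild type, and Etv5 had overlapping genotypes. Of other feedback inhibitors, Spry1 and Spry2 were not detected and Spred1 and Spred2 did not pass. No general split between inhibitors and transcription factors can be drawn from these genes.

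**Figure D4:**
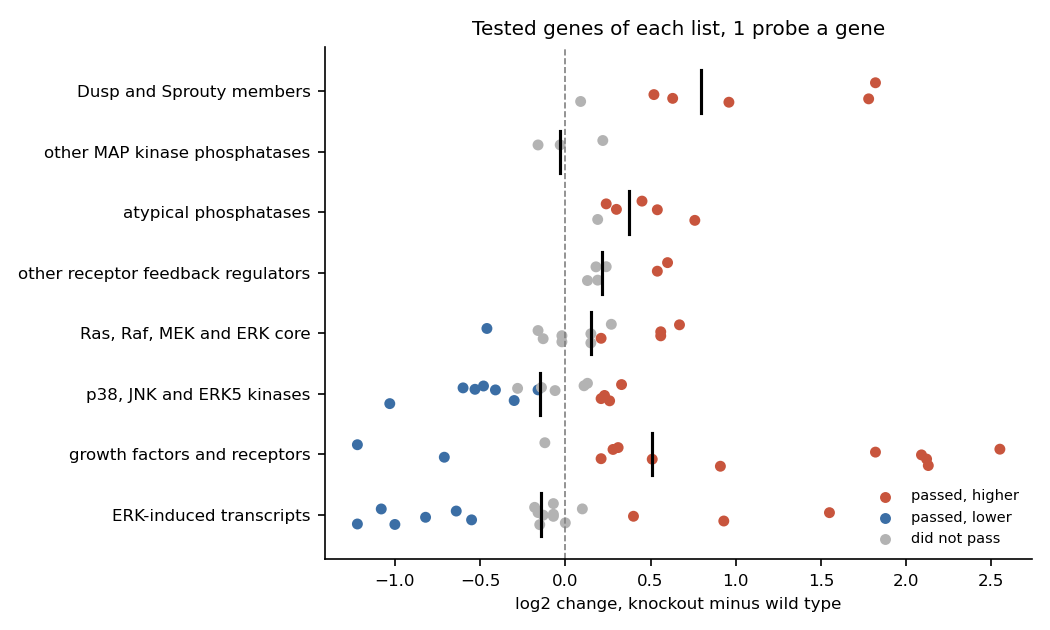
Log2 change of each tested gene of the members and of the 7 pathway lists, with 1 probe a gene (the brightest tested). Red and blue points passed an adjusted p of 0.05, grey points did not, and the black bar is the list's median. The members' median is 0.79, and the ERK-induced transcripts spread to both sides of 0.

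The array-to-array pattern of Dusp1 was shared by Fos, another immediate early gene. Fos read 11.27, 9.89, 9.60 and 9.90 in wild type against 12.33, 11.58, 11.56 and 11.37 in knockout. Replicate 1 was the highest array of each genotype for both genes. Fosb was also highest on replicate 1 in knockout, at 9.99 against 8.72 to 9.10, but not in wild type. Egr1 was highest on replicate 1 of each genotype too, at 14.37 and 14.22, within a range of 13.86 to 14.37 in all, and Dusp4 had no such high array in knockout. In wild type alone, replicate 1 was also highest at the brighter Dusp4 probe, both Dusp10 probes, Dusp14, Spry4 and Egr2. At both tested Dusp6 probes it was highest in knockout alone. Without both replicate 1 arrays 8 of the 9 tested member probes passed, and the Fos change was 1.71 (limma adjusted p = 5.16e-06). Heat shock genes respond to the handling of cells. Of 8 tested, 1 was higher and 1 lower. Hspb1 was higher by 1.33 on the log2 scale (limma adjusted p = 3.86e-08), the largest change of that list. Dnajb1 was lower, with a log2 difference of -0.18 (limma adjusted p = 0.0335, and 0.0701 with a replicate block). Hspa1a read from 8.08 to 8.83 in wild type against from 7.63 to 8.25 in knockout. The summed intensity of that list was 76652 to 79971 in wild type and 72241 to 78903 in knockout.

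**Figure D5:**
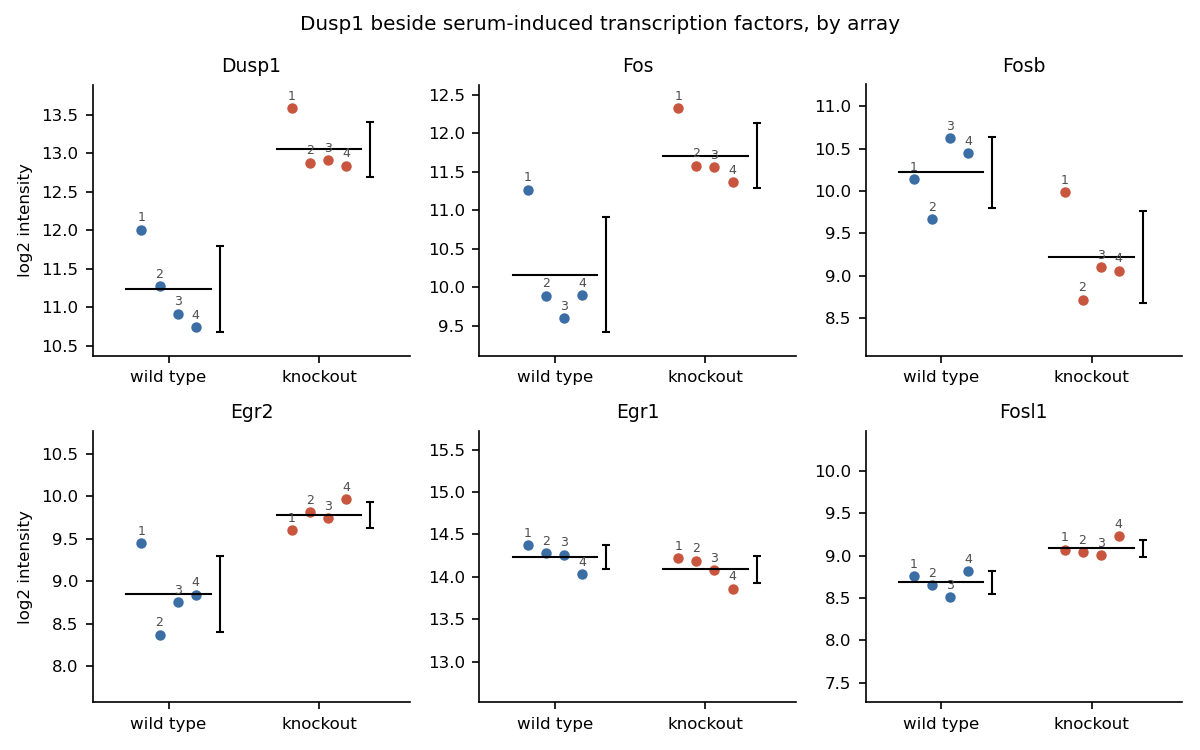
Log2 intensity of Dusp1 and of 5 serum-induced transcription factors on each array, with replicate numbers, means (lines) and 1 SD (bars). Each panel has its own axis. Replicate 1 stands highest in both genotypes for Dusp1, Fos and, by less, Egr1, and Fosb is lower in knockout.

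By Pearson's r over the 8 arrays, the genes whose pattern was most like that of Dusp1 among 8301 others were Tnnc1 (0.993), Nudt16 (0.988) and Socs3 (0.986). All 3 were higher in knockout, and 738 genes had an r over 0.9. The 8 points share the genotype difference, and these values describe the 8 arrays only. Socs3, itself a feedback inhibitor, of cytokine receptors, rose by 1.39 on the log2 scale (limma adjusted p = 0.000399). No tested member had a change in the opposite direction to set beside it.

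Markers of other vascular cells were mostly undetected. Pecam1, Cdh5, Kdr, Tek, Tie1 and Vwf of the endothelium and Ptprc, Itgam, Adgre1 and Cd79a of leukocytes were not detected on any array. The summed intensity of the endothelial list was 121 to 201 in wild type and 81 to 125 in knockout, with 1 gene tested, which was lower. That of the leukocyte list was 239 to 364 and 276 to 294, with 3 tested. Of these Cd14 was lower, and Lyz2 and Cd3e were detected on 4 knockout arrays and 0 wild-type arrays, so that they could pass the filter on dim probes only as higher in knockout. Dusp1, Dusp4, Dusp6, Dusp10 and Spry4 are not restricted to one cell type, and whether their rise came with the fibroblast markers was not tested.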

How the data were processed

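Total RNA of 8 samples, assigned to genotypes by sample title, was hybridised to Illumina mouse bead arrays, per the labels' protocols. The deposited table holds a signal intensity per probe and array, of which 28.42% to 29.69% were below 0, so that background had been subtracted before deposit, and beside it, per the file headers, a detection p-value. A second deposited table holds log2 values with the same distribution on every array, and it served as an alternative.

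Intensities were corrected and quantile normalized with neqc of limma 3.58.1 (R 4.3.3, offset 16). Probes had to be detected (p under 0.05) on 4 or more arrays, and the 12040 that were went through lmFit and eBayes, knockout minus wild type, without a block, with Benjamini-Hochberg adjustment over all of them and a threshold of 0.05. Adjusted p-values are from this fit unless a sentence names another setting. The fit was tested on simulated data, with normal noise and 50 probes changed per size. It called 10% of log2 changes of 0.25, 68% of 0.5, 96% of 1 and 100% of 2. Of 11840 unchanged probes, 12 were called. Small changes can thus be missed, but far fewer probes changed there than here, so these shares need not hold for these data. At least-fold values set the mean of the brighter genotype against, per array of the other, the higher of the lowest detected value and the probe's own. Probes were named by the platform annotation, with symbols updated by gene identifier (23962 of 23978 matched). Summed intensities take the brightest probe of each gene, with negative values at 0. Members and lists were chosen with earlier results of these data known. The genes named are every member probe, up to 4 genes past the threshold with the largest change per list, the 3 genes most like the member of largest change, and a fixed set (Atp2b4, Egr1, Fos, Fosl1, Etv4, Etv5, Myc and Ccnd1, with the rest of the set not reported here). Genes given beyond these (Acta2, Tagln, Cnn1, Hspa1a, Egr2, Dusp7, Dusp8, Dusp11, Dusp16, Mapk14, Map2k3, Fgfr2, Igf1r, Lyz2, Cd3e and the named undetected or unpassed list genes) were chosen after their values were seen. Figures were drawn with matplotlib 3.10.9. Arrays of a genotype correlated at 0.99106 to 0.99585 and none were duplicates. The number of arrays limits the precision.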

Additional observations from a re-analysis of the deposited data

Results flagged for a closer look

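A gap test for 1 array apart from the other 3 of its genotype picked out 7 of 126 groups examined, and chance alone picks about 1 in 20. Among the members this was Dusp1 on knockout replicate 1, at 13.59 with the other knockout arrays from 12.84 to 12.91. Without that array the log2 change of Dusp1 was 1.64. The remaining arrays apart were Dusp19 on wild-type replicate 4 (9.55), Igf1 on knockout replicate 2 (10.20), Myc on wild-type replicate 3 (6.55), Dcn on knockout replicate 4 (14.24), Cd14 on wild-type replicate 1 (8.39) and Cdk1 on knockout replicate 1 (9.09).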

How the results depend on the processing

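The 9 tested member probes kept their direction and their side of the threshold in all 162 refits, which comprised 10 processing alternatives and the omission of each array. Of them 8 passed each time, and without the filter on dim probes 10 of 16 passed, the further ones being the dimmest Dusp4 probe (log2 change 0.86, limma adjusted p = 0.00154) and the dimmest Dusp6 probe (0.54, limma adjusted p = 0.0363). The change of Dusp1 ranged from 1.64 to 2.07, those of the Dusp4 probes from 1.62 to 1.84 and from 1.30 to 1.86, those of the Dusp10 probes from 0.59 to 1.18 and from 0.58 to 1.1, those of the Dusp6 probes from 0.57 to 1.02 and from 0.57 to 0.67, and that of Spry4 from 0.31 to 0.60 (limma adjusted p from 0.00375 to 0.0237). The lowest values for Dusp10, Spry4 and the dimmer Dusp4 and Dusp6 probes came with an offset of 50, which compresses the changes of dim probes. Between 6217 and 6672 probes passed with 1 array left out, against 6777 with all. The replicate number as a block gave 6541 probes and 8 member probes and 43 pathway genes, against 44 without it, and it changed no member's call. The numbers were not taken as pairs in the main fit, since deviations of same-numbered arrays correlated at only -0.0294 to 0.0871. These correlations do not address single genes, and Dusp1, Fos and Egr1 were highest on replicate 1 of both genotypes. With the block the limma adjusted p fell for Dusp1, Fos and the dimmer Dusp10 probe. It rose for every other tested member probe. Whether same-numbered arrays shared an effect on such genes was not tested. Over the alternatives 41 to 47 pathway genes passed. Cyclic loess moved the split of calls to 3442 higher and 3338 lower, from 3168 and 3609, and left the members' calls as they were. The signs of values that did not pass turned for Etv5 without wild-type replicate 3 (0.011, with a range from -0.15 to 0.011 over single arrays left out), Ccnd1 under median scaling (-0.00091), and Atp2b4 without knockout replicate 1 (-0.016, with a range from -0.016 to 0.19) or without both replicate 1 arrays (-0.07), and the cause was not tested. Dnajb1 no longer passed in 7 of its 18 alternatives. Signal over background limits Dusp2, Spry1 and Spry2, for which no difference could be measured.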
